A study of Mus musculus with 2 samples.

Results

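The Hox cluster genes are the genes whose symbol is Hox, a cluster letter from a to d and a paralogue number. A total of 31 such genes were named by probe sets with a single gene symbol, through 37 probe sets, out of 12393 genes in all on the same terms. The 31 were 9 of the 11 RefSeq genes of HoxA, 9 of 10 of HoxB, 6 of 9 of HoxC and 7 of 9 of HoxD, and the remaining 8 were not analysed here. Transcripts were compared between 1 Affymetrix array of primitive and 1 array of maturing haematopoietic stem cells (HSCs). Both populations were sorted by flow cytometry from mouse bone marrow after 30 min of culture and received no treatment. The sources used here give no genotype, strain, age or sorted surface phenotype. Each array reports a cDNA library that was primed on the poly(A) tail, amplified by PCR, selected by size and cloned in phage, and the signal is a MAS5 intensity without unit.

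Hox genes encode transcription factors that bind DNA through a homeodomain and give cells along the embryonic axis their position. They lie in 4 clusters, on chromosomes 6 (HoxA), 11 (HoxB), 15 (HoxC) and 2 (HoxD) of the mouse, and genes with the same number in different clusters are paralogues, numbered from 1 to 13. In blood, HoxA and HoxB genes are known for their activity in stem and progenitor cells, where it declines as cells differentiate. Hoxb4 expands stem cells when it is overexpressed, and Hoxa9 sustains progenitors and is active in leukaemias with rearranged MLL. Hox proteins bind DNA together with the TALE homeodomain proteins of the PBX, MEIS and PKNOX families.

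Promoter sequences are shown for the 2 Hox genes with an entry in the RefSeq promoter table whose brightest probe set differed at least 2-fold between the arrays, Hoxa9 and Hoxa10. That of Hoxa2 is added as the one above the intensity floor that held both motifs of Hox cofactors. Each sequence covers 250 bases before to 50 after an annotated start, in build GRCm38.p6 on the minus strand. The table held 20 entries for 18 of the 31 genes. Capitals mark the motifs searched on both strands, which were TGACAG for MEIS, TGATTNAT for PBX with Hox, TATAAA and CCAAT, and no marked motif overlaps another. Hoxa9 is at chr6:52227321-52227620, Hoxa10 at chr6:52240805-52241104 (distal start) and chr6:52234890-52235189 (proximal start), and Hoxa2 at chr6:52164782-52165081.
Hoxa9: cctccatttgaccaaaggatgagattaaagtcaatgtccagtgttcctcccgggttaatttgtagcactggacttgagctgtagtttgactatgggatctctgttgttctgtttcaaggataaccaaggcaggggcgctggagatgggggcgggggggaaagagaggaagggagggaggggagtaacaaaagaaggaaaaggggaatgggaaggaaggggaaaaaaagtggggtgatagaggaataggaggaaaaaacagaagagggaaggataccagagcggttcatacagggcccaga
Hoxa10, distal start: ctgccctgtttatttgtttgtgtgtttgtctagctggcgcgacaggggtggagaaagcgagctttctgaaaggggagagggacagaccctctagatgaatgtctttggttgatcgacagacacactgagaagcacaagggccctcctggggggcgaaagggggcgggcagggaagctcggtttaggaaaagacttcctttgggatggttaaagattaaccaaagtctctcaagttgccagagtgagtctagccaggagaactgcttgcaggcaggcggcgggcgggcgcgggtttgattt
Hoxa10, proximal start: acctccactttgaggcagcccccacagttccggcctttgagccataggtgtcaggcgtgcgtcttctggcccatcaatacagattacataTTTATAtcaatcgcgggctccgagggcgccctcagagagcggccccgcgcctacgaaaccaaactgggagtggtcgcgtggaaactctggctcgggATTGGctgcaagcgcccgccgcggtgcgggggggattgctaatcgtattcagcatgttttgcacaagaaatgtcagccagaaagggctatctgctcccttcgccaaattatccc
Hoxa2: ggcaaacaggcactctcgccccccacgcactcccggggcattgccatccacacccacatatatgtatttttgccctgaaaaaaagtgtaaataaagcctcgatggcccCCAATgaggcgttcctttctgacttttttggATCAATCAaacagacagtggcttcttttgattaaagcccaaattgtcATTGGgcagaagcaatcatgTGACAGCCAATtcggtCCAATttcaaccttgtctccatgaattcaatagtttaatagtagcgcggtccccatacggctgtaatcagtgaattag

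None of the 4 motifs is in the Hoxa9 window or the distal Hoxa10 window. The proximal Hoxa10 window holds 1 TATAAA and 1 CCAAT, and the Hoxa2 window holds 1 TGACAG, 1 TGATTNAT and 4 CCAAT. Over all 32851 promoters of this length, 19.2% hold TGACAG, 3.22% TGATTNAT, 13.6% TATAAA and 37.4% CCAAT. Among the 20 Hox windows, 2 hold TGACAG, 2 TGATTNAT, 2 TATAAA and 11 CCAAT. CG dinucleotides numbered 4 for Hoxa9, 12 and 21 for the distal and proximal Hoxa10 starts and 9 for Hoxa2, against a median of 14.5 over the Hox windows and 7 over all promoters.

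The primitive array spanned intensities of 2.9 to 212983 and the maturing array of 1.7 to 136594. Intensities under 441.0, the pooled median of the probe sets other than controls, were set to that floor. A gene above it on 1 array only has a bound in place of a ratio. Of 11 stem cell marker genes on the array, 10 were above the floor on at least 1 array, among them Kit, Cd34, Procr and Gata2, and Tie1 was not. All 8 neutrophil and monocyte markers were above it on at least 1 array as well, 5 of them higher on the primitive and 3 on the maturing array. S100a8 read 46743 on the primitive and 19527 on the maturing array, and Mpo 270.1 and 2587. Among 5 T cell markers, Cd3d read 8673 on the primitive and 44.2 on the maturing array, Cd8a read 193.9 and 806.6, and Cd3e, Cd3g and Cd4 were below the floor on both. Of 5 B cell markers 4 were above the floor on at least 1 array, as were 2 of 4 erythroid markers and 4 of 7 stromal and endothelial markers. The share over all genes was 71.4%, so such counts alone do not show that cells of a type were present. Whether such cells contributed to Hox signal was not tested, and fewer cells of a type cannot be told apart from less RNA per cell. With 1 array for each population there are no replicates, so no test was possible and each value describes this pair of libraries.

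Most Hox genes gave a low signal in both populations. Of the 31 genes, 11 were above the floor on at least 1 array (35.5%), against 71.4% of all 12393 genes. Hoxa3, Hoxa9, Hoxa11, Hoxb4, Hoxb7, Hoxc6 and Hoxc9 were above it on both arrays. Hoxa2, Hoxa10 and Hoxd9 were above it on the primitive array only, and Hoxd11 on the maturing array only. A gene takes its brightest probe set here, and Hox genes had fewer probe sets to choose from, 1.19 per gene against 1.64. Counted by probe set, 14 of 37 were above the floor on at least 1 array (37.8%), against 63.6% of 20380. Among genes with a single probe set the shares were 26.9% of 26 Hox genes and 61.6% of all 7437. Among genes with more than 1 probe set they lay closer, 4 of 5 Hox genes (80.0%) and 86.2% of all 4956. Probe sets differ in how strongly they bind, so a value below the floor does not place a gene below another in expression.

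By cluster, 5 of 9 HoxA genes were above the floor on at least 1 array, 2 of 9 HoxB genes, 2 of 6 HoxC genes and 2 of 7 HoxD genes. At this floor HoxD was the only cluster with no gene above the floor on both arrays. By paralogue number, the genes above the floor were 3 of 9 in groups 1 to 4, 2 of 9 in groups 5 to 8 and 6 of 13 in groups 9 to 13. In paralogue group 9, Hoxa9, Hoxc9 and Hoxd9 were above the floor and Hoxb9 was below it. Hoxa13, Hoxb13, Hoxc13 and Hoxd13, the genes of group 13, were below it on both arrays.

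**Figure D1:**
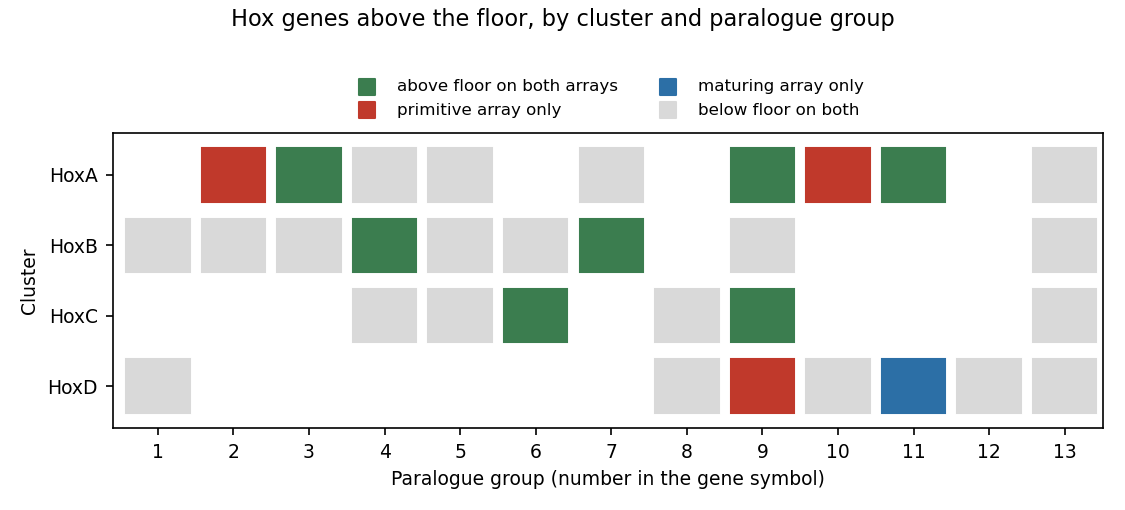
Each square is 1 of the 31 Hox genes, placed by cluster (rows) and paralogue group (columns), and its colour says on which of the 2 arrays its brightest probe set was above the floor of 441.0. Positions left white hold no gene analysed here. HoxA holds 5 of the 11 coloured squares.

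In HoxA, Hoxa9 had the largest ratio among the 11 genes, but its probe sets went opposite ways. Probe set 1455626_at read 701.2 in primitive and 2156 in maturing HSCs, which is 3.07-fold higher in maturing HSCs (log2 ratio of primitive over maturing -1.62). Probe set 1421579_at read 1446 in primitive and 692.8 in maturing HSCs, 2.09-fold higher in primitive HSCs (log2 ratio 1.06). All 4 of these values were above the floor, so no direction can be given for Hoxa9. The annotation lists an accession for 1421579_at and none for 1455626_at.

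Hoxa10, the neighbour of Hoxa9 that is also active in progenitors, read 968.2 in primitive and 420.8 in maturing HSCs. The maturing value lay just below the floor, so the gene was at least 2.20-fold higher in primitive HSCs. Hoxa11, known for its part in limb and uterus development, read 850.6 and 548.7, a ratio of 1.55-fold toward primitive HSCs. Hoxa2, which patterns the hindbrain and branchial arches, read 631.4 in primitive and 128.9 in maturing HSCs, at least 1.43-fold higher in primitive HSCs. With the floor at the pooled percentile 25 (140.6) the Hoxa2 bound was a log2 ratio of 2.17, since it rests on where the floor is set.

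Hoxa3, a gene of pharyngeal organs such as the thymus, was higher in maturing HSCs by both of its probe sets. Probe set 1452421_at read 497.3 in primitive and 724.1 in maturing HSCs, 1.46-fold higher in maturing HSCs. Probe set 1427433_s_at read 69.0 and 807.6, at least 1.83-fold higher in maturing HSCs. Its suffix _s_at is among those of probe sets that can bind several transcripts. The remaining HoxA genes, Hoxa4, Hoxa5, Hoxa7 and Hoxa13, read between 38.0 and 411.8 over 5 probe sets and both arrays.

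In HoxB, 2 genes exceeded the floor on both arrays, and each was slightly higher in primitive HSCs. Hoxb4 read 845.7 in primitive and 662.0 in maturing HSCs by probe set 1460379_at, a 1.28-fold difference, and its other probe set was below the floor at 396.6 and 201.4. Hoxb7 read 726.2 and 528.2, a 1.37-fold difference. Hoxb1, Hoxb2, Hoxb3, Hoxb5, Hoxb6, Hoxb9 and Hoxb13 read between 21.9 and 417.5, with a median of 137.8.

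In HoxC, Hoxc9 read 1092 in primitive and 541.2 in maturing HSCs, 2.02-fold higher in primitive HSCs. Hoxc6 was measured by 3 probe sets that did not go the same way. Probe set 1427362_x_at read 1524 in primitive and 934.4 in maturing HSCs, 1.63-fold higher in primitive HSCs. Probe set 1427361_at read 708.1 and 971.1, 1.37-fold higher in maturing HSCs. The third read 213.9 and 76.3, below the floor on both arrays. The annotation lists no accession for any of the 3, and the suffix _x_at marks a probe set that can bind several transcripts. Hoxc4, Hoxc5, Hoxc8 and Hoxc13 read between 33.2 and 433.0.

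In HoxD, 2 genes stood just above the floor on a single array. Hoxd9 read 495.5 in primitive and 371.1 in maturing HSCs, at least 1.12-fold higher in primitive HSCs. Hoxd11 read 185.6 and 455.1, at least 1.03-fold higher in maturing HSCs. Hoxd1, Hoxd8, Hoxd10, Hoxd12 and Hoxd13 read between 36.6 and 293.0, with a median of 64.4. Among the Hox genes below the floor on both arrays, those closest to it were Hoxc8 at 433.0 in primitive HSCs and Hoxb1 and Hoxa13 at 417.5 and 411.8 in maturing HSCs.

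**Figure D2:**
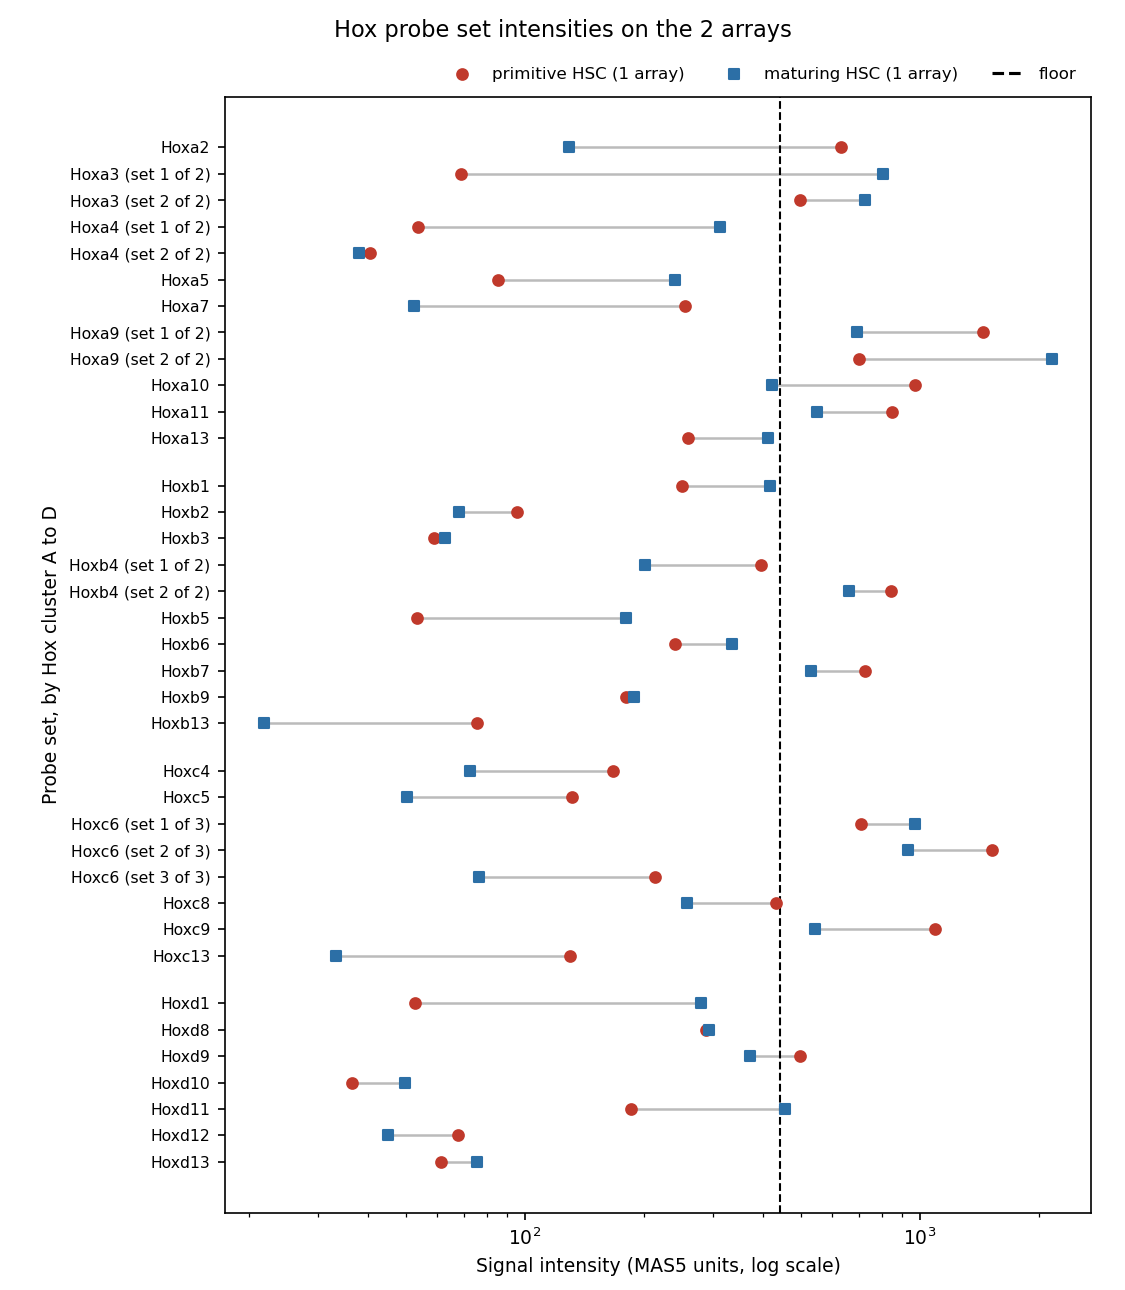
Signal intensity on a log scale for each of the 37 Hox probe sets, in primitive (circles) and maturing HSCs (squares) from 1 array each, grouped by cluster, with the floor of 441.0 dashed. For genes with several probe sets, sets are numbered in the order of their identifiers: Hoxa9 set 1 is higher in primitive HSCs (1446 against 692.8) and set 2 in maturing HSCs (2156 against 701.2).

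The comparison between the populations asked whether Hox transcripts differed between primitive and maturing HSCs. Of the 11 measured genes, 8 were higher in primitive HSCs, against 52.7% of the 8852 measured genes of all kinds. Under a scaling to the hybridisation controls 3 of 14 measured Hox genes were, against 19.8% of all measured genes. The count was 7 of 11 when each gene took the median over its probe sets, and 6 of 10 without the probe sets of suffix _a_at, _s_at or _x_at, and Hoxc6 turned toward maturing HSCs in both. The 8 genes were Hoxa2, Hoxa10, Hoxa11, Hoxb4, Hoxb7, Hoxc6, Hoxc9 and Hoxd9. Under the hybridisation controls 5 of them turned. Hoxa10 (log2 ratio 0.23), Hoxc9 (0.04) and Hoxa2 (bound 0.03) kept the direction, Hoxc9 and Hoxa2 only barely. The 18 hybridisation control probe sets themselves had a median log2 ratio of 0.97, higher on the primitive array. Scaling to them moved the median of all genes with both arrays above the floor by -0.77. The median log2 ratio of the Hox genes was 0.46, against 0.07 over all measured genes. Under the hybridisation controls these medians were -0.36 and -0.74, so the distance of Hox genes from all genes was 0.39 before and 0.37 after. That distance was -0.10 over the 23 Hox genes above a floor at percentile 25.

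No Hox gene reached a 4-fold difference in either direction. Over all measured genes, 3.45% were at least 4-fold higher in primitive and 4.69% in maturing HSCs. The floor leaves little room for such a difference, since 1764 on the brighter array is needed to show it. Hoxa9 alone among the Hox genes exceeded that value, while 24.2% of the 2975 genes that did were at least 4-fold apart. At 2-fold, Hoxa10 and Hoxc9 were higher in primitive HSCs, where 15.6% of all measured genes were, and Hoxa9 was higher in maturing HSCs by its brighter probe set, where 17.6% were. Under the hybridisation controls neither Hoxa10 (log2 ratio 0.23) nor Hoxc9 (0.04) was 2-fold apart, while Hoxa9 stood at -2.59. An intensity of 882.1 is needed for 2-fold, and 3 of the 4 Hox genes that reached it were at least 2-fold apart, against 52.0% of 5665 genes.

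The spread between probe sets of a gene was the one internal measure of error. It comes from this 1 pair of arrays, so it holds no variation between libraries. Its SD was 0.82 on the log2 scale over 1318 genes, and 8 of the 11 Hox ratios or bounds were smaller than that. The same share was not counted over all genes. Within 2-fold were 72.7% of the 11 Hox genes and 66.7% of all 8852 measured genes. A bound is a minimum, so one below the SD does not show a small difference. Hoxa2, which read 631.4 and 128.9, is among the 8 by its bound of 0.52. Hoxa9, Hoxa10 and Hoxc9 were larger, and Hoxa10 and Hoxc9 had a single probe set each. Of 3 Hox genes with at least 2 measured probe sets, only Hoxa3 had all of them in the same direction, against 55.6% of 2764 genes of all kinds.

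**Figure D3:**
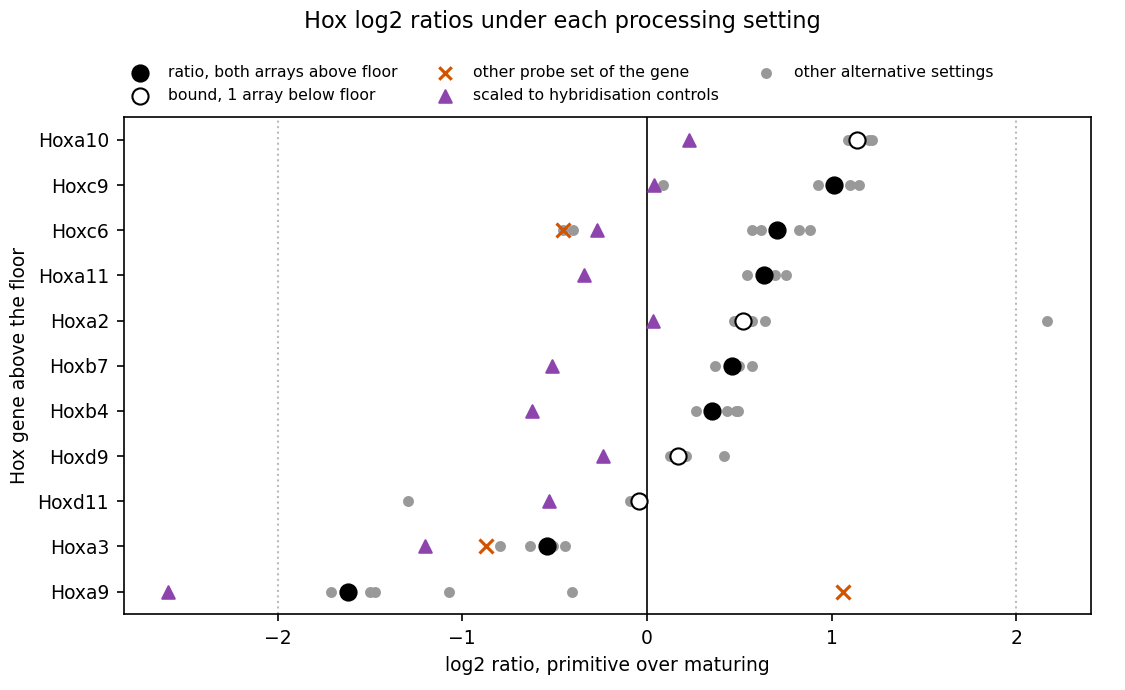
Log2 ratio of primitive over maturing HSCs for the 11 Hox genes above the floor, as reported (large circles, open for bounds), for further measured probe sets of the gene (crosses), after scaling to the hybridisation controls (triangles) and under the other alternative settings (small points). Dotted lines mark 4-fold, and the crosses of Hoxa9 (1.06) and Hoxc6 (-0.46) lie on the other side of 0 from their brightest probe sets.

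Of 8 TALE cofactors of Hox proteins on the array, 6 were measured, 4 of them higher in maturing HSCs and 2 in primitive HSCs, with a median log2 ratio of -0.42. Over all measured genes, 47.3% were higher in maturing HSCs. Meis1, the partner of Hoxa9 in leukaemia, read 59.1 in primitive and 1199 in maturing HSCs, at least 2.72-fold higher in maturing HSCs. Pknox1 read 354.5 and 889.8, at least 2.02-fold higher in maturing HSCs. Pbx3 read 95.1 and 649.3 and Pknox2 85.3 and 533.7, with bounds of 1.47-fold and 1.21-fold toward maturing HSCs. Pbx2, the only one above the floor on both arrays, read 665.3 and 544.0, and Pbx4 read 458.4 and 159.0. Meis2 and Meis3 were below the floor on both arrays. Leaving out the probe sets with suffix _a_at, _s_at or _x_at, that of Meis1 included, the measured cofactors divided into 2 and 2. With the median over each gene's probe sets, 0 were higher in primitive and 4 in maturing HSCs, where 50.6% of all measured genes were higher in primitive HSCs. Under the hybridisation controls 0 were higher in primitive and 5 in maturing HSCs, where that share was 19.8%. The log2 ratio of Pbx2 turned to -0.68 under the hybridisation controls, which moved the median of all genes toward maturing HSCs.

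Of 7 measured genes on the MLL side, which keep Hox genes active, 5 were higher in maturing HSCs, against the same 47.3% of all measured genes, with a median log2 ratio of -0.60. When each gene took the median of its probe sets, 4 were higher in maturing and 3 in primitive HSCs, with a median of -0.13. Kmt2a, which encodes MLL itself, read 1238 in primitive and 2048 in maturing HSCs, and its partner genes Men1 (585.3 and 885.3) and Psip1 (2243 and 3858) went the same way. Wdr5, a shared subunit of histone H3 methyltransferase complexes, was 2.51-fold higher in maturing HSCs. Mllt3, whose product AF9 reads acylated histones in elongation complexes, went against them with 7845 in primitive and 1529 in maturing HSCs, a log2 ratio of 2.36 that stayed at 1.39 under the hybridisation controls.

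Of 15 measured Polycomb genes, which silence Hox clusters, 12 were higher in maturing HSCs, against 47.3% of all measured genes. The list's median log2 ratio was -0.65. By the brightest probe set 0 were at least 4-fold apart, where 3.45% of all measured genes were toward primitive and 4.69% toward maturing HSCs. Another probe set passed 4-fold for Rnf2 (log2 ratio -2.82), Rbbp4 (-2.37) and Mtf2 (-2.36). Under the hybridisation controls Rnf2 (-3.31), Rbbp4 (-2.52) and Bmi1 (-2.09) passed it. The Rnf2 value under that scaling comes from its other probe set (-2.82 before), which became the brightest. The share of all genes past 4-fold under that scaling was not counted. Bmi1, needed for stem cell self-renewal, read 194.8 in primitive and 1338 in maturing HSCs, at least 3.03-fold higher in maturing HSCs. The histone-binding subunit gene Rbbp4 was 2.92-fold and the ubiquitin ligase gene Rnf2 2.29-fold higher in maturing HSCs, and Cbx2 was 2.50-fold higher in primitive HSCs. The log2 ratio of Cbx2 was 0.35 under the hybridisation controls.

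Of 7 measured genes that act upstream of Hox clusters in the embryo, 5 were higher in primitive HSCs, against 52.7% of all measured genes. The list's median log2 ratio was 0.31. Under the hybridisation controls 0 of 6 were higher in primitive HSCs, against 19.8% of all measured genes. The distance of the list's median from that of all measured genes was 0.25 before and -0.06 after that scaling. The caudal gene Cdx2 read 853.6 in primitive and 455.6 in maturing HSCs, and Cdx1 read 588.1 and 26.7. The retinoic acid receptor genes Rarg (338.4 and 917.7) and Rarb (508.0 and 664.9) were higher in maturing HSCs, while Rara was below the floor on both arrays. Cdx4 was below the floor on both arrays as well.

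**Figure D4:**
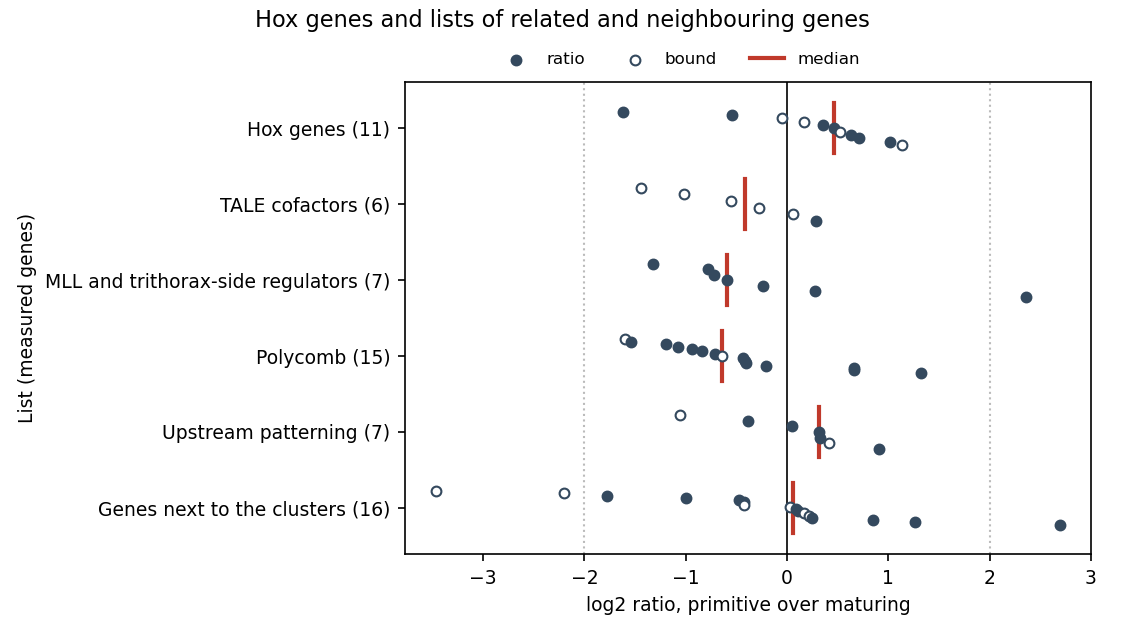
Log2 ratio of primitive over maturing HSCs for each measured Hox gene and for each measured gene of 5 further lists (number in brackets), filled where both arrays were above the floor and open for bounds, with the median of each list as a bar. The medians lie at 0.46 for Hox genes, -0.42 for TALE cofactors, -0.60 for MLL-side regulators, -0.65 for Polycomb genes, 0.31 for upstream patterning genes and 0.06 for genes next to the clusters.

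The 3 nearest protein-coding genes outside each end of each cluster were taken from the RefSeq gene table, and 16 of the 17 on the array were above the floor on at least 1 array, against 71.4% of all genes. They divided into 9 higher in primitive and 7 in maturing HSCs, with a median log2 ratio of 0.06. Of all measured genes, 52.7% were higher in primitive HSCs. Skap2, an adaptor protein gene beside HoxA, read 68811 in primitive and 10628 in maturing HSCs, 6.47-fold higher in primitive HSCs. At the other end of HoxA, Tax1bp1 read 116.1 and 4866, at least 11.0-fold higher in maturing HSCs, though another of its 3 probe sets stood at a log2 ratio of -0.27. Cbx5 beside HoxC was at least 4.61-fold higher in maturing HSCs, with its 5 measured probe sets between -2.26 and 0.97. The RNA-binding protein gene Hnrnpa1, on the same side of HoxC, read 2678 and 9188, 3.43-fold higher in maturing HSCs. The Hox-related homeobox genes at the cluster ends read 511.0 in primitive and 269.8 in maturing HSCs for Evx1 (HoxA) and 825.7 and 779.4 for Evx2 (HoxD). The log2 ratio of Skap2 was 1.72 under the hybridisation controls.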

How the data were processed

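The authors deposited linear signal intensities for 22690 probe sets, 64 of them controls. MAS5 made them, according to the submitters' processing notes, in a version not given in the sources used here. Detection calls were not used. MAS5 gives every array the same mean, so total RNA per cell cannot be compared. A further rescaling set the 2% trimmed means equal (1000.6 and 1000.4 as deposited).

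Genes came from the platform annotation. The 691 probe sets with several symbols were left out, 20380 had 1 symbol, and 20351 of these matched the RefSeq symbol of their Entrez identifier, including all 37 of the Hox genes. Each gene was represented by its probe set with the highest mean intensity. Ratios are log2 of primitive over maturing after the floor, and with 1 array per group there is no test and the number of arrays limits the precision. All Hox genes are named, and up to 4 members of each further list with the largest ratio or bound, with all TALE cofactors. Men1, Rara, Cdx4, Evx1, Evx2 and the marker genes of blood cells were named beyond that rule after their values were seen. Members and lists were chosen with earlier results of these data known. Lowess used a fraction of 0.3, and scaling to controls put an equal part of the shift on each array. The steps were tested on simulated data with changes planted only in genes far above the floor. That test does not cover intensities near the floor, where most Hox genes lie. Software was matplotlib 3.10.9, pandas 2.3.3, numpy 2.4.6, statsmodels 0.14.6 and scipy 1.17.1 under Python 3.11.15.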

Additional observations from a re-analysis of the deposited data

How the results depend on the processing

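Of 31 Hox genes, 11 were above the floor on at least 1 array as reported, 23 with the floor at percentile 25 and 3 at percentile 75. Those 3 were Hoxa9, Hoxc6 and Hoxc9. Of all genes, 71.4%, 90.6% and 40.2% were above these floors. For HoxA the counts at percentiles 25 and 75 were 9 and 1, for HoxB 6 and 0 and for HoxD 4 and 0. HoxC had 4 at percentile 25. HoxB had 4 when scaled to the hybridisation controls, and HoxD 1 after quantile normalization and 1 after lowess, which both lost Hoxd11. At least 4-fold higher in primitive HSC was 1 Hox gene, Hoxa2, with the floor at percentile 25. At least 4-fold higher in maturing HSC was 1 under the hybridisation controls, Hoxa9 by its brighter probe set. Its other probe set was higher in primitive HSC as reported. The shares of all genes past 4-fold at those settings were not counted. A 2-fold threshold gave 2 higher in primitive and 1 in maturing HSC, against 15.6% and 17.6% of all measured genes. An 8-fold threshold gave 0 and 0. Hox genes higher in primitive HSC numbered 3 of 14 under the hybridisation controls, against 19.8% of all measured genes. With the floor at percentile 75 they numbered 2 of 3, against 49.6%. The median log2 ratio lay between -0.36 (hybridisation controls) and 0.57 (quantile normalization). The cause of these changes was not tested, beyond the fewer or more genes that each floor admits. When each gene took the median over its probe sets, Hoxa9 stood at -0.41 and Hoxc6 at -0.40, and without probe sets of several transcripts Hoxc6 stood at -0.46 and Hoxa10 was left out. Leaving out a replicate was not possible. No paired analysis was possible because each group has 1 array.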

Other observations

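Transcript from the opposite strand of Hoxa11 has a probe set of its own, named Hoxa11os, which read 117.9 in primitive and 40.7 in maturing HSC, below the floor on both arrays. A further 3 probe sets are annotated to 2 Hox genes each and were left out, since their signal cannot be given to either gene. They read between 41.4 and 424.3 over both arrays, also below the floor.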
